A study of Danio rerio with 9 samples.

Results

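FKBP5, KLF9 and 8 further genes known as targets of the glucocorticoid receptor were followed in whole zebrafish embryos. The other 8 were PCK1, PDK4, TAT, LPIN1, sgk1, tsc22d3, CEBPD and ZBTB16. Genes were taken by symbol, ignoring case, from the reference gene table, and all 10 symbols matched 1 gene each of the 32434 in the count table. Symbols are printed as that table gives them, some of them in the capital style of human genes. The set was chosen by the low FKBP5 counts of the BaAQ libraries, which were known beforehand, so FKBP5 and KLF9, the genes at the head of the set, are described without a test in every comparison. The 8 others are tested in the comparison of BEZO with Control only, whose Control libraries the BaAQ comparison also uses.

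The groups were BaAQ (benzanthracene-7,12-dione, a quinone, 10 µM), BEZO (1,9-benz-10-anthrone, a ketone, 10 µM) and Control. All of them, Control included, received 1% dimethyl sulfoxide (DMSO) as vehicle. Embryos of the wild-type zebrafish line 5D were exposed from 6 to 48 hours post fertilization (hpf) and collected at 48 hpf. Each of the 3 samples per group was a vial of 20 pooled embryos in 2 mL, described by the labels as an independent biological replicate, so differences between single embryos are not visible. The labels give 37 °C during exposure, which is far above the usual temperature for this species and could not be checked. Both compounds are oxygenated polycyclic aromatic hydrocarbons, and they were tested at the same dose and times.

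The glucocorticoid receptor is a transcription factor held in the cytoplasm by HSP90 and its co-chaperones until it binds cortisol, the main stress steroid of fish. The bound receptor enters the nucleus and raises or lowers the transcription of target genes, among them FKBP5, whose protein binds HSP90 and lowers the receptor's affinity for hormone in a short feedback loop. The other targets listed here act in glucose and amino acid metabolism, ion transport and immune restraint, and most are also under the control of further signals. Their roles are best known from mammals.

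Counted reads ran from 8106613 to 14435626 per library, and 18860 genes had enough reads to be tested, all 10 targets among them. Levels are counts scaled to a library total of 1000000 reads (CPM), as mean ± SD over 3 libraries where 1 value is given per group. Because gene lengths on the build used were not at hand, levels are compared between groups and never between genes. Log2 fold changes, with standard errors (SE), come from a single edgeR quasi-likelihood fit of all 9 libraries, with the first-named group on top. The threshold was an adjusted p of 0.05 (Benjamini-Hochberg, over all tested genes). A whole embryo is a mixture of tissues, so fewer cells of a type and less RNA per cell cannot be told apart in any value below.

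FKBP5 (ENSDARG00000028396) was at 4.14, 4.19 and 1.04 CPM in the BaAQ libraries, at 7.79, 29.9 and 20.3 CPM in the BEZO libraries and at 41.3, 56.8 and 59.2 CPM in the Control libraries. Every BaAQ value lay below every BEZO value, and every BEZO value lay below every Control value. The means were 3.13 ± 1.804 CPM in BaAQ, 19.3 ± 11.1 CPM in BEZO and 52.4 ± 9.74 CPM in Control (SD, n = 3 each). In the fit the level was 17.4-fold lower in BaAQ than in Control (log2 fold change -4.12, SE 0.37) and 2.81-fold lower in BEZO than in Control (-1.49, SE 0.27). Between the compounds it was 6.19-fold lower in BaAQ than in BEZO (-2.63, SE 0.41).

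The BaAQ difference from Control placed FKBP5 at rank 3 of 18860 tested genes, counted from the most negative log2 fold change. The BEZO difference placed it at rank 48. Exposed vials scattered more than vehicle vials, with coefficients of variation of 57.7% in BaAQ and 57.4% in BEZO, against 18.6% in Control. Some of this scatter lay outside counting error. BaAQ 3 rested on 10 reads, with an exact 95% Poisson interval of 0.5003 to 1.92 CPM, whereas BaAQ 1 and BaAQ 2 had intervals of 3.04 to 5.51 and 2.91 to 5.86 CPM. BEZO 1, the lowest ketone vial, had an interval of 6.28 to 9.55 CPM, clear of BEZO 2 (26.8 to 33.4 CPM). Without BEZO 1 the log2 fold change of BEZO against Control was -1.09, and without BEZO 2 it was -2.00.

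KLF9 (ENSDARG00000068194) encodes a Krüppel-like transcription factor that glucocorticoids induce in mammals and in zebrafish. Its levels were 0.441, 0.864 and 1.04 CPM in BaAQ, 2.20, 3.94 and 3.31 CPM in BEZO and 4.89, 7.55 and 7.38 CPM in Control. The 3 groups again did not overlap and stood in the same order as for FKBP5. Means were 0.782 ± 0.310 CPM in BaAQ, 3.15 ± 0.879 CPM in BEZO and 6.60 ± 1.49 CPM in Control (SD, n = 3 each). The fitted level was 9.05-fold lower in BaAQ than in Control (-3.18, SE 0.31), 2.20-fold lower in BEZO than in Control (-1.14, SE 0.23) and 4.12-fold lower in BaAQ than in BEZO (-2.04, SE 0.36). It stood at rank 7 from the most negative in BaAQ against Control and at rank 123 in BEZO against Control. The BaAQ libraries held only 5, 7 and 10 reads of this gene, so their order among themselves lies within counting error.

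**Figure D1:**
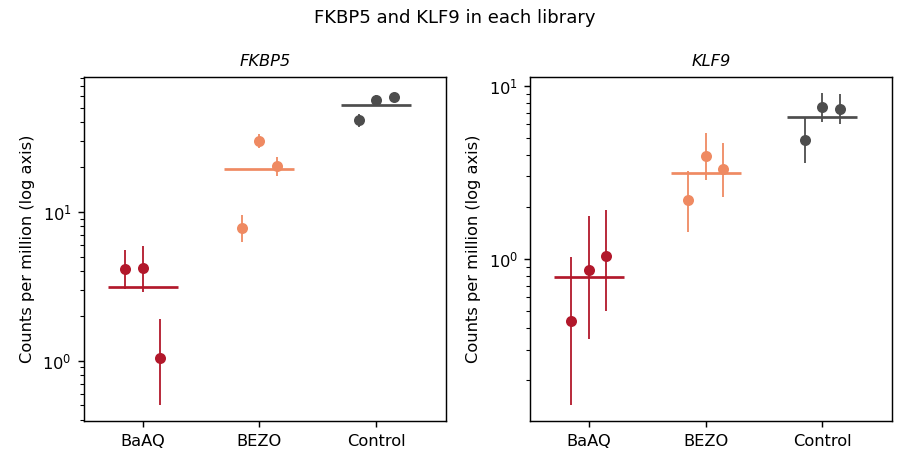
Level of FKBP5 and of KLF9 in CPM on a log axis in each of the 3 BaAQ, 3 BEZO and 3 Control libraries. Points are libraries, vertical lines their exact 95% Poisson intervals and horizontal lines the group means, and in both panels the 3 groups do not overlap.

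Set against the Control mean of each gene, FKBP5 was at 7.90, 8.0 and 1.99% in BaAQ 1, 2 and 3, and KLF9 at 6.67, 13.1 and 15.8%. In BEZO 1, 2 and 3, FKBP5 was at 14.9, 57.1 and 38.7% and KLF9 at 33.3, 59.6 and 50.2%. Within BEZO the vials therefore had the same order for both genes, lowest in BEZO 1 and highest in BEZO 2. For KLF9 this order rested on only 26, 43 and 32 reads in BEZO 1, 2 and 3. The Poisson intervals overlapped, at 1.438 to 3.225, 2.848 to 5.301 and 2.267 to 4.678 CPM. Single vials were not tested against each other, so no shared order of the vials is read from it. Within Control, vial 1 was the lowest for both genes, at 78.7% for FKBP5 and 74.0% for KLF9. The KLF9 interval of Control 1, 3.59 to 6.496 CPM, overlapped those of Control 2 and Control 3, which began at 6.2 and 6.013 CPM. Within BaAQ the order differed, since vial 3 was the lowest for FKBP5 and the highest for KLF9, whose order there lay within counting error.

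**Figure D2:**
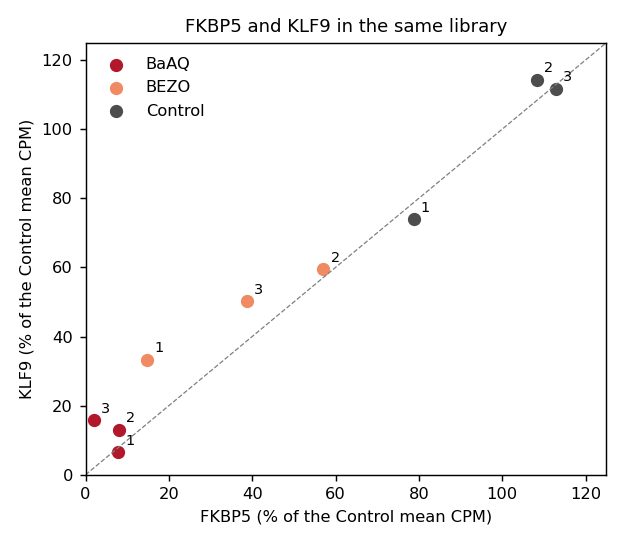
Level of KLF9 against that of FKBP5 in the same library, each as a percentage of its mean CPM in Control. Points are the 9 libraries with their vial numbers and the dashed line marks equal percentages; all 3 BEZO libraries lie above it, BEZO 1 at 33.3% for KLF9 and 14.9% for FKBP5.

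The genes whose profile over the 9 libraries was closest to that of FKBP5 were ponzr4, RHCG, ponzr3, KLF9 and uox, by root mean square difference of centred log2(CPM + 0.5) among 14669 genes with a symbol and a mean of at least 1 CPM. Their distances ran from 0.56 for ponzr4 to 1.03 for uox, the urate oxidase gene, against a median of 1.8 over all genes compared. RHCG, an ammonium transporter gene, was at 0.879 ± 0.841 CPM in BaAQ, 7.53 ± 6.40 CPM in BEZO and 10.6 ± 3.09 CPM in Control. In BEZO its lowest vial was BEZO 1 at 2.03 CPM and its highest BEZO 2 at 14.6 CPM, as for FKBP5, and BEZO overlapped Control. RHCG was picked by closeness to FKBP5 over these same vials, so nothing is read from the shared order. Its BaAQ values rested on only 21, 3 and 4 reads in BaAQ 1, 2 and 3. The plac8 onzin-related gene ponzr4 was at 1.93 ± 0.968 CPM in BaAQ, 8.67 ± 3.48 CPM in BEZO and 32.3 ± 4.87 CPM in Control.

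For KLF9 the closest profiles were uox, SLC46A3, PHKG1, ponzr3 and ETNPPL, at distances of 0.46 to 0.54 against a median of 1.09. ETNPPL, which encodes an enzyme of phosphoethanolamine breakdown, was at 4.50 ± 0.586 CPM in BaAQ, 6.34 ± 0.954 CPM in BEZO and 14.9 ± 0.344 CPM in Control. KLF9 was the fourth closest gene to FKBP5, whereas FKBP5 was at rank 391 among the neighbours of KLF9. Their distance was 0.9 both ways, and the ranks differ because more genes lay nearer to KLF9 than to FKBP5. KLF9 in BaAQ, at 0.441 to 1.04 CPM, was near the 0.5 CPM added before the logarithm, which shrinks its fall. Such distances are descriptions over 9 libraries in 3 groups that also set the profiles apart.

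The 8 other targets lay closer to their Control levels. Their log2 fold changes in BaAQ against Control lay between -0.60 and 0.57, with a median of -0.18 beside a median of 0.004 over all tested genes. In BEZO against Control they lay between -0.37 and 0.41, with a median of 0.02 beside -0.001 over all tested genes. In BaAQ against Control 10.2% of all tested genes passed the threshold (4.82% higher, 5.41% lower). The vials did not overlap for 3 of the 10 genes, FKBP5 and KLF9 lower and PCK1 higher, beside 28.0% of all tested genes. This comparison was in view when the genes were chosen. No call is therefore given for them, and nothing is read from this count. Of the 8 genes tested in BEZO against Control, PCK1 was the 1 that passed, and it was higher, beside 6.44% of all tested genes (3.09% higher, 3.35% lower). In this comparison 3 of these 8, PCK1, CEBPD and ZBTB16, had no overlap between the groups, beside 24.8% of all tested genes. Between BaAQ and BEZO 4.84% of all tested genes passed (2.56% higher, 2.27% lower). FKBP5, KLF9 and CEBPD had no overlap between the compounds, all 3 with lower values in BaAQ, beside 22.3% of all tested genes. No call is given for the 10 genes here either, and nothing is read from this count.

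PCK1 (ENSDARG00000013522), the gene of the cytosolic enzyme that commits carbon to glucose synthesis, was at 55.9, 46.9 and 44.0 CPM in BaAQ, 47.2, 36.2 and 46.9 CPM in BEZO and 32.6, 33.5 and 29.1 CPM in Control. All exposed vials lay above all vehicle vials, while the BaAQ and BEZO vials overlapped. The log2 fold change was 0.57 (SE 0.11) in BaAQ against Control and 0.16 (SE 0.11) in BaAQ against BEZO. PCK1 rose in BEZO against Control by 0.41 (SE 0.11), in 3 of 3 vials, with an adjusted p of 0.0227 (edgeR quasi-likelihood). The call ended without Control 1, Control 3, BEZO 1 or BEZO 3, with adjusted p up to 0.134. The direction is opposite to that of FKBP5 and KLF9.

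PDK4 (ENSDARG00000054848), a kinase that shuts off pyruvate dehydrogenase in fasting, had overlapping groups, with 17.9 ± 1.36 CPM in BaAQ, 18.1 ± 1.26 CPM in BEZO and 18.9 ± 2.39 CPM in Control (SD, n = 3 each). In BEZO against Control its log2 fold change was -0.10, with a 95% interval of -0.32 to 0.13. LPIN1 (ENSDARG00000020239) encodes lipin, a phosphatidate phosphatase of lipid synthesis. It was at 13.7, 10.9 and 16.7 CPM in BaAQ, 16.3, 15.7 and 14.7 CPM in BEZO and 17.9, 15.9 and 17.9 CPM in Control, with BaAQ 3 inside the Control range. The difference was -0.37 (SE 0.13) in BaAQ against Control. In BEZO against Control it was -0.18 (SE 0.12), with an adjusted p of 0.478 in the edgeR fit.

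TAT (ENSDARG00000069630), tyrosine aminotransferase, is the classic glucocorticoid-induced enzyme of the mammalian liver. It was at 2.03, 1.23 and 1.04 CPM in BaAQ, 1.61, 1.56 and 1.97 CPM in BEZO and 2.50, 1.73 and 2.31 CPM in Control, and all 3 groups overlapped. With only 10 to 32 reads per library its differences were imprecise, at -0.60 (SE 0.29) in BaAQ against Control and -0.37 (SE 0.28) in BEZO against Control (adjusted p = 0.514, edgeR). Without BaAQ 1 the BaAQ difference was -0.97.

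The kinase gene sgk1 (ENSDARG00000025522), which raises epithelial sodium transport in mammals, was at 22.8, 24.6 and 25.1 CPM in BaAQ, 20.5, 24.0 and 24.2 CPM in BEZO and 19.5, 18.4 and 23.1 CPM in Control. The groups overlapped, and the log2 fold changes were 0.19 (SE 0.10) in BaAQ against Control and 0.13 (SE 0.10) in BEZO against Control. The gene tsc22d3 (ENSDARG00000075666) encodes the anti-inflammatory factor GILZ. It was at 28.3, 21.1 and 22.4 CPM in BaAQ, 25.5, 27.6 and 24.4 CPM in BEZO and 26.3, 26.6 and 29.4 CPM in Control. BaAQ 1 lay within the Control range while BaAQ 2 and BaAQ 3 lay below it, and the differences were -0.24 (SE 0.11) in BaAQ and -0.13 (SE 0.10) in BEZO against Control.

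CEBPD (ENSDARG00000087303), a transcription factor of acute-phase and stress responses, was at 20.5, 22.9 and 27.7 CPM in BaAQ, 28.4, 30.0 and 38.0 CPM in BEZO and 27.9, 27.99 and 26.6 CPM in Control. All BEZO vials lay above all BaAQ and all Control vials, and BaAQ overlapped Control. The difference was -0.45 (SE 0.12) in BaAQ against BEZO, -0.27 (SE 0.12) in BaAQ against Control and 0.18 (SE 0.11) in BEZO against Control (adjusted p = 0.397, edgeR). ZBTB16 (ENSDARG00000007184), a zinc finger repressor strongly induced by glucocorticoids in human cells, was at 14.9 ± 0.351 CPM in BaAQ, 16.6 ± 1.73 CPM in BEZO and 14.2 ± 0.553 CPM in Control. Its difference was 0.01 (SE 0.11) in BaAQ against Control and 0.19 (SE 0.11) in BEZO against Control (adjusted p = 0.351, edgeR). For the 7 genes that did not pass in BEZO against Control, the 95% intervals lay within -0.96 and 0.42 on the log2 scale.

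**Figure D3:**
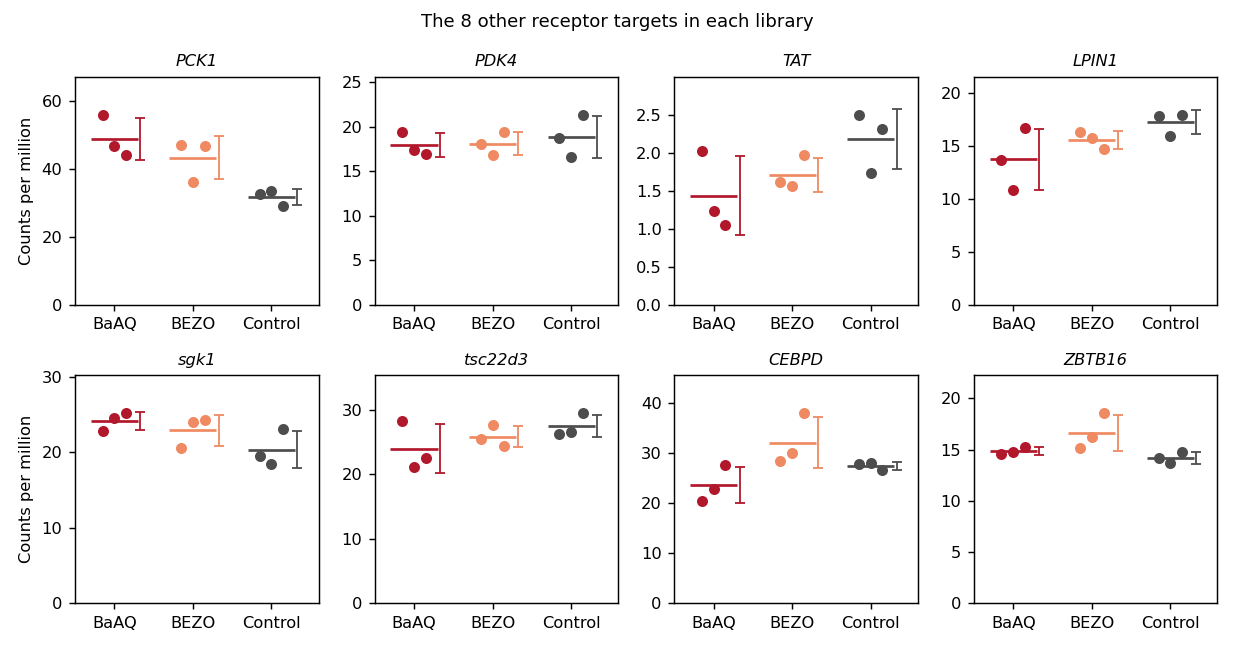
Level in CPM of the 8 other targets in each BaAQ, BEZO and Control library, on linear axes from 0. Points are libraries, horizontal lines group means and bars 1 SD on either side (n = 3); only PCK1 has all BaAQ and all BEZO vials above all Control vials.

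**Figure D4:**
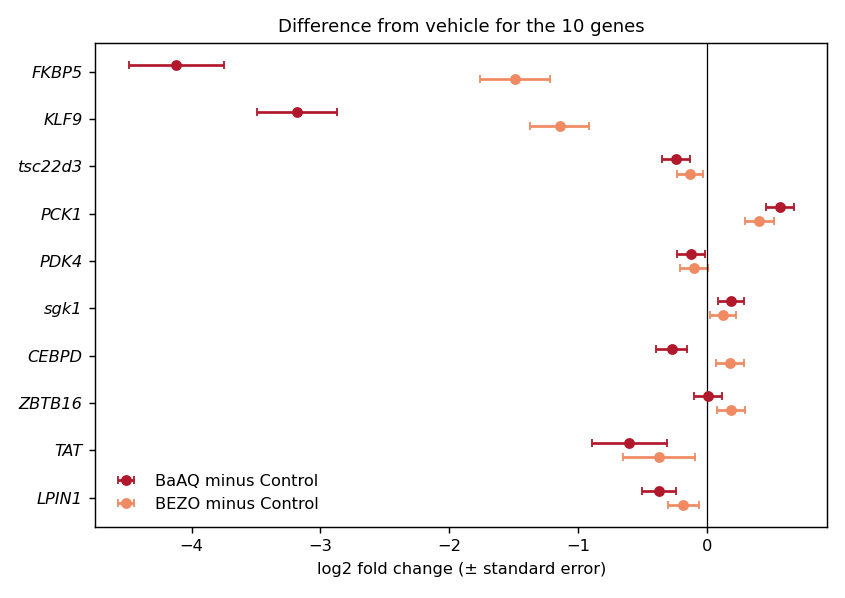
Log2 fold change of the 10 genes in BaAQ minus Control and in BEZO minus Control, with bars of 1 standard error. FKBP5 and KLF9 stand at -4.12 and -3.18 in BaAQ and at -1.49 and -1.14 in BEZO, and the 8 other genes lie between -0.60 and 0.57.

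The receptor gene NR3C1 (ENSDARG00000025032) was at 81.5, 73.0 and 83.2 CPM in BaAQ, 80.2, 69.2 and 76.8 CPM in BEZO and 62.1, 70.0 and 65.7 CPM in Control. Its log2 fold change did not pass in BaAQ against Control (0.21, SE 0.08, edgeR adjusted p = 0.0892) or in BEZO against Control (0.15, SE 0.08, edgeR adjusted p = 0.279). The difference between the compounds was 0.06, with a 95% interval of -0.10 to 0.22 and an adjusted p of 0.764 (edgeR). No gene was matched to nr3c2, the mineralocorticoid receptor, so no value is given for it. Among 15 tested genes of the receptor and its chaperones and cofactors, 3 were lower in BaAQ than in Control, or 20.0% beside 10.2% of all genes, with a list median of 0.00. The cytosolic chaperone gene hsp90aa1.1 was at 131 ± 26.5 CPM in BaAQ, 211 ± 45.6 CPM in BEZO and 247 ± 36.0 CPM in Control. It fell in BaAQ by 0.97 (SE 0.14, edgeR adjusted p = 9.38e-05). HSP90AB1, on the same list, was at 4129 ± 201 CPM in BaAQ, 4088 ± 21.1 CPM in BEZO and 3803 ± 75.5 CPM in Control. Its log2 fold change was 0.07 (SE 0.06) in both BaAQ and BEZO against Control, with edgeR adjusted p of 0.573 and 0.61. PTGES3 (ENSDARG00000037284), the co-chaperone p23, fell in BaAQ by 0.46 (SE 0.08) and was the 1 gene of this list past the threshold in BEZO, where it fell by 0.41 (SE 0.08). The second PTGES3 copy (ENSDARG00000089626) was at -0.66 (SE 0.26, edgeR adjusted p = 0.122) in BaAQ against Control. In BEZO it was at -0.52 (SE 0.25, edgeR adjusted p = 0.27), and neither passed. FKBP4, the HSP90 co-chaperone that promotes receptor activity, had a log2 fold change of -0.29 in BaAQ against Control (SE 0.08), a call that ended without Control 1, Control 3, BaAQ 1 or BaAQ 3 (adjusted p up to 0.151, edgeR). Between the compounds 2 of 15 passed (13.3% beside 4.84% of all genes), with hsp90aa1.1 at -0.70 in BaAQ against BEZO (SE 0.14; adjusted p = 0.051 in DESeq2) and HSP90AA1 at -0.37 (SE 0.09). The HSP90AA1 call ended without BEZO 2, BEZO 3 or BaAQ 3.

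Of 26 matched genes of the stress axis and of steroid synthesis and breakdown, 14 were tested. Of these 14, 4 were lower in BaAQ than in Control, or 28.6% beside 10.2% of all genes, with a list median of -0.35. All 4 belong to steroid synthesis or breakdown. Stress axis genes among the 14 were CRH, its binding protein gene CRHBP and its receptor gene CRHR2. Their log2 fold changes in BaAQ against Control were 0.51 (SE 0.30), 0.36 (SE 0.21) and 1.26 (SE 0.46). None of them passed, with edgeR adjusted p of 0.323, 0.318 and 0.0913. POMC, pomcb, CRHR1 and mc2r had too few reads to be tested. HSD11B2, which inactivates cortisol, was at 14.6, 16.0 and 14.5 CPM in BaAQ, 21.6, 22.1 and 20.0 CPM in BEZO and 26.4, 26.8 and 23.6 CPM in Control, without overlap between any groups. It fell in BaAQ against Control by 0.82 (SE 0.10, edgeR adjusted p = 1.70e-05) and in BaAQ against BEZO by 0.52 (SE 0.11). STAR, which carries cholesterol into mitochondria at the start of steroid synthesis, was at 2.20, 1.73 and 1.25 CPM in BaAQ, 4.15, 3.84 and 3.83 CPM in BEZO and 3.64, 3.53 and 4.84 CPM in Control. All BaAQ vials lay below all others, and the gene fell by 1.25 (SE 0.24) against Control and by 1.18 (SE 0.25) against BEZO, with edgeR adjusted p of 0.0016 and 0.00597. The STAR values rested on only 25, 14 and 12 reads in BaAQ 1, 2 and 3. The gene hsd20b2, whose enzyme takes part in cortisol breakdown in zebrafish, fell in BaAQ against Control by 0.81 (SE 0.16). A further steroid dehydrogenase gene, hsd3b1, was at 0.403 ± 0.141 CPM in BaAQ and 1.35 ± 0.0290 CPM in Control, a call that ended whenever any Control or BaAQ library was left out and in DESeq2. Of the 14 tested, 0 passed in BEZO against Control by edgeR or DESeq2, and 2 had an unadjusted p under 0.05 in edgeR.

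Levels of interrenal markers, the cells that make cortisol in fish, stood beside these values. The 5 matched markers, which include STAR, summed to 14.9 to 19.8 CPM in BaAQ, 16.9 to 19.1 CPM in BEZO and 17.5 to 21.5 CPM in Control. Most reads behind this sum came from CYP17A1, a steroid hydroxylase gene, a share that also depends on gene length. CYP17A1 was at 12.6 ± 2.79 CPM in BaAQ, 11.7 ± 1.25 CPM in BEZO and 12.8 ± 1.355 CPM in Control. The gene cyp11c1, for the last step of cortisol synthesis, was at 1.26 ± 0.193 CPM in BaAQ, 0.914 ± 0.188 CPM in BEZO and 1.73 ± 0.462 CPM in Control. The corticotropin receptor gene mc2r had 0 reads in all 3 BaAQ libraries, against 0.0915 to 0.169 CPM in BEZO and 0.0693 to 0.104 CPM in Control, all below the level of 3 reads (0.208 to 0.370 CPM). Of the 4 tested, STAR was the 1 past the threshold in BaAQ against Control (25.0% beside 10.2% of all genes). Pronephros markers, of an organ that handles steroids and ions, summed to 257 to 263 CPM in BaAQ, 279 to 300 CPM in BEZO and 265 to 290 CPM in Control, with 3 of 9 tested lower in BaAQ than in Control (33.3% beside 10.2% of all genes). The part of either tissue in the steroid gene values was not tested.

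Other genes known to respond to glucocorticoids mostly moved upward where they passed. Of 36 tested, 8 were higher and 2 lower in BaAQ against Control (27.8% beside 10.2% of all genes), and 10 were higher in BEZO against Control (27.8% beside 6.44%). The list medians were 0.03 in BaAQ and 0.13 in BEZO against Control. Among the 2 lower in BaAQ was nfkbiab, at -0.31 against Control (SE 0.09, edgeR adjusted p = 0.0313). MKNK2 (ENSDARG00000011373), a kinase of translation initiation, was at 18.3, 16.7 and 18.6 CPM in BaAQ, 18.4, 19.5 and 21.6 CPM in BEZO and 10.8, 10.5 and 9.76 CPM in Control. It rose by 0.74 (SE 0.11) in BaAQ and by 0.90 (SE 0.11) in BEZO, with edgeR adjusted p of 0.000159 and 1.59e-05. The second MKNK2 copy (ENSDARG00000015164) rose by 0.47 (SE 0.09) and 0.55 (SE 0.09) in the same comparisons, and reads of the copies may be shared. The list named only mknk2b, and both copies matched once the suffix was removed. Both are therefore in the counts above, and the listed copy cannot be told from the other.

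CEBPB, a transcription factor related to CEBPD, was at 29.8 ± 2.83 CPM in BaAQ, 35.8 ± 1.67 CPM in BEZO and 20.0 ± 0.889 CPM in Control. It rose against Control by 0.52 (SE 0.09) in BaAQ and by 0.81 (SE 0.09) in BEZO. SOCS3 (ENSDARG00000026611), a brake on cytokine signalling, rose by 0.95 (SE 0.15) in BaAQ and by 0.66 (SE 0.16) in BEZO. The second SOCS3 copy (ENSDARG00000025428) was at 0.82 (SE 0.27, edgeR adjusted p = 0.0605) in BaAQ against Control. In BEZO it was at 0.57 (SE 0.27, edgeR adjusted p = 0.258), and neither passed. ANXA1, which encodes the anti-inflammatory annexin A1, rose by 0.37 (SE 0.07) in BEZO against Control, while its difference in BaAQ was 0.17 (SE 0.07, edgeR adjusted p = 0.133). Between the compounds 1 of 36 passed (2.78% beside 4.84% of all genes), ANGPTL4, a lipoprotein lipase inhibitor gene. It was at 35.1 ± 1.395 CPM in BaAQ, 49.8 ± 5.84 CPM in BEZO and 37.9 ± 1.71 CPM in Control (-0.52, SE 0.09, in BaAQ against BEZO). Against Control, ANGPTL4 rose in BEZO by 0.36 (SE 0.08, edgeR adjusted p = 0.0123). Its difference in BaAQ against Control was -0.16 (SE 0.09, edgeR adjusted p = 0.275) and did not pass. The clock gene PER1, a textbook receptor target, has 2 copies here, which were at 29.2 ± 3.91 and 1.52 ± 0.267 CPM in BaAQ, 28.4 ± 2.47 and 1.48 ± 0.154 CPM in BEZO and 25.0 ± 0.724 and 2.59 ± 0.557 CPM in Control. Neither passed in any comparison; the second copy (ENSDARG00000056885) had log2 fold changes of -0.81 (SE 0.27, edgeR adjusted p = 0.0571) in BaAQ and -0.85 (SE 0.26, edgeR adjusted p = 0.0562) in BEZO against Control. They were chosen for mention after their values were seen. Leukocyte markers, the cells in which several of these genes act, summed to 35.4 to 43.2 CPM in BaAQ, 48.7 to 53.5 CPM in BEZO and 43.0 to 48.0 CPM in Control, and 1 of the 3 copies of the macrophage gene MPEG1 had no read in at least 1 BaAQ and 1 BEZO library. Of 9 tested, 2 were lower in BaAQ than in Control (22.2% beside 10.2% of all genes), and their part in the values was not tested.

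Of 13 tested relatives of FKBP5 in the immunophilin family, 5 were lower in BaAQ against Control, or 38.5% beside 10.2% of all genes, with a list median of -0.18. They were FKBP4, given above, and FKBP7, FKBP9, FKBP10 and fkbp11, prolyl isomerases of the endoplasmic reticulum. FKBP9 was at 107 ± 10.2 CPM in BaAQ, 127 ± 2.07 CPM in BEZO and 149 ± 2.11 CPM in Control and fell in BaAQ against Control by 0.52 (SE 0.07, edgeR adjusted p = 4.00e-05). It was also the 1 family member past the threshold in BEZO against Control and in BaAQ against BEZO (-0.26, SE 0.07, in both), or 7.69% of the list beside 6.44% and 4.84% of all genes. The BEZO call ended without Control 1, 2 or 3, BEZO 1 or BEZO 3. The call between the compounds ended without Control 1, Control 3, BaAQ 3 or any BEZO library, and in a fit of BaAQ and BEZO alone. The largest of the 5 differences was that of fkbp11, which fell in BaAQ against Control by 0.98 (SE 0.16).

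Among 17 tested relatives of KLF9, 2 were higher and 2 lower in BaAQ against Control, or 23.5% beside 10.2% of all genes, with a list median of 0.05. The gene klf2b rose by 0.51 (SE 0.09), KLF6 rose by 0.29 (SE 0.07) and KLF3, a repressor, fell by 0.67 (SE 0.12). The call of klf2a (-0.35, SE 0.11) ended without Control 2 or 3, BEZO 2 or 3, or BaAQ 2 or 3, with the replicate block, in a fit of BaAQ and Control alone and in DESeq2. KLF6 rose in BEZO against Control by 0.34 (SE 0.07) and KLF3 fell by 0.54 (SE 0.12), the KLF3 call ending without Control 2 or BEZO 1. These were 2 of 17, or 11.8% beside 6.44% of all genes. Between the compounds klf2b was the 1 of 17 past the threshold (5.88% beside 4.84% of all genes), at 0.40 (SE 0.09), a call that ended without BEZO 2 or BaAQ 2.

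Paralogs of the other targets passed in 6 of 15 cases in BaAQ against Control, 3 higher and 3 lower (40% beside 10.2% of all genes), and in 2 of 15 in BEZO against Control, both higher (13.3% beside 6.44%). The mitochondrial counterpart of PCK1, pck2, was at 57.0 ± 5.83 CPM in BaAQ, 71.5 ± 11.3 CPM in BEZO and 81.2 ± 5.63 CPM in Control. It fell in BaAQ against Control by 0.56 (SE 0.10, edgeR adjusted p = 0.000893), opposite to PCK1. CEBPA, a liver and myeloid factor, was at -0.36 (SE 0.09) in BaAQ against Control, a call that ended without Control 1 or BaAQ 3, and at -0.40 (SE 0.10) in BaAQ against BEZO, a call that ended without BEZO 1, BEZO 3 or BaAQ 3. The related gene cebpg rose against Control by 0.55 (SE 0.07) in BEZO and by 0.24 (SE 0.07, edgeR adjusted p = 0.0418) in BaAQ. Of the tsc22d3 relatives, tsc22d2 was at -0.31 (SE 0.08) in BaAQ against Control, a call that ended without Control 2 or BaAQ 2. PDK2 (ENSDARG00000059054) was at 1.60 ± 0.457 CPM in BaAQ and 3.09 ± 0.478 CPM in BEZO, a call between the compounds (adjusted p = 0.0497, edgeR) that ended under 12 of 15 alternatives. In all, 3 of 15 paralogs passed between the compounds (20.0% beside 4.84% of all genes), CEBPA, cebpg and PDK2, each lower in BaAQ than in BEZO. The cebpg call ended without BEZO 3 or BaAQ 1.

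Of 17 tested genes of glucose synthesis and fatty acid oxidation, 1 was higher and 5 lower in BaAQ against Control, or 35.3% beside 10.2% of all genes, with a list median of -0.14. The BEZO comparison with Control had 1 higher and 3 lower, or 23.5% beside 6.44%. The copies of fructose bisphosphatase, an enzyme downstream of PCK1, moved apart in BaAQ. The first, fbp1a, was at 57.6 ± 3.08 CPM in BaAQ, 43.5 ± 1.98 CPM in BEZO and 35.4 ± 2.09 CPM in Control and rose in BaAQ against Control by 0.64 (SE 0.08, edgeR adjusted p = 1.75e-05). The other, fbp1b, was at 59.5 ± 6.80 CPM in BaAQ, 89.4 ± 9.26 CPM in BEZO and 78.3 ± 5.08 CPM in Control and fell in BaAQ against Control by 0.44 (SE 0.09). HADHA, a subunit of the mitochondrial trifunctional protein of fatty acid oxidation, fell in BaAQ against Control by 0.42 (SE 0.07). Its BEZO value of -0.28 (SE 0.07) passed too, a call that ended without Control 2, Control 3, BEZO 1 or BEZO 3. Its near copy hadhaa, which may share reads with it, fell in BaAQ against Control by 0.40 (SE 0.09, edgeR adjusted p = 0.00374). In BEZO against Control hadhaa was at -0.37 (SE 0.08), a call that ended without BEZO 3. ACADM, an acyl-CoA dehydrogenase, was at -0.29 (SE 0.08) in BEZO against Control, a call that ended without Control 1, 2 or 3, BEZO 2 or BEZO 3. The carnitine palmitoyltransferase gene cpt1ab was at 0.41 (SE 0.09) there, a call that ended without Control 3. Between the compounds, 1 of 17 was higher in BaAQ and 3 lower (23.5% beside 4.84% of all genes), among them PC, pyruvate carboxylase (-0.58, SE 0.12). Another of the 3, cpt1ab, was a call that ended without BEZO 2, BEZO 3 or BaAQ 3.

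Among the enzymes that act after TAT in tyrosine breakdown, HPD and HGD were higher in BaAQ than in Control, whereas hpda was lower. Of 8 tested genes of this pathway, 4 were higher and 1 lower in BaAQ against Control, or 62.5% beside 10.2% of all genes, with a list median of 0.42. HPD, which oxidizes the product of TAT, was at 24.0, 22.3 and 19.3 CPM in BaAQ, 11.3, 10.6 and 12.3 CPM in BEZO and 8.84, 7.07 and 8.82 CPM in Control. None of the groups overlapped, and HPD rose in BaAQ by 1.37 (SE 0.12) against Control and by 0.93 (SE 0.12) against BEZO, with edgeR adjusted p of 2.82e-07 and 4.80e-05. HGD, the next enzyme, was at 22.8 ± 0.374 CPM in BaAQ, 16.2 ± 2.18 CPM in BEZO and 10.4 ± 2.22 CPM in Control, and rose in BaAQ against Control by 1.09 (SE 0.13). Its rise in BEZO against Control, 0.61 (SE 0.14), ended without Control 3 or BEZO 1. QDPR (ENSDARG00000040190) and PCBD1, which recycle the cofactor of phenylalanine hydroxylase, rose in BaAQ against Control by 0.78 (SE 0.11) and 0.61 (SE 0.11). Other QDPR copies were on the list and did not pass in BaAQ against Control or were not tested. The second HPD-type gene, hpda, fell in BaAQ against Control by 0.89 (SE 0.18). In BaAQ against BEZO 4 were higher and 1 lower, or 62.5% beside 4.84% of all genes. The lower gene was hpda, whose call there ended without BEZO 1. In BEZO against Control HGD was the 1 of 8 past the threshold (12.5% beside 6.44%).

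**Figure D5:**
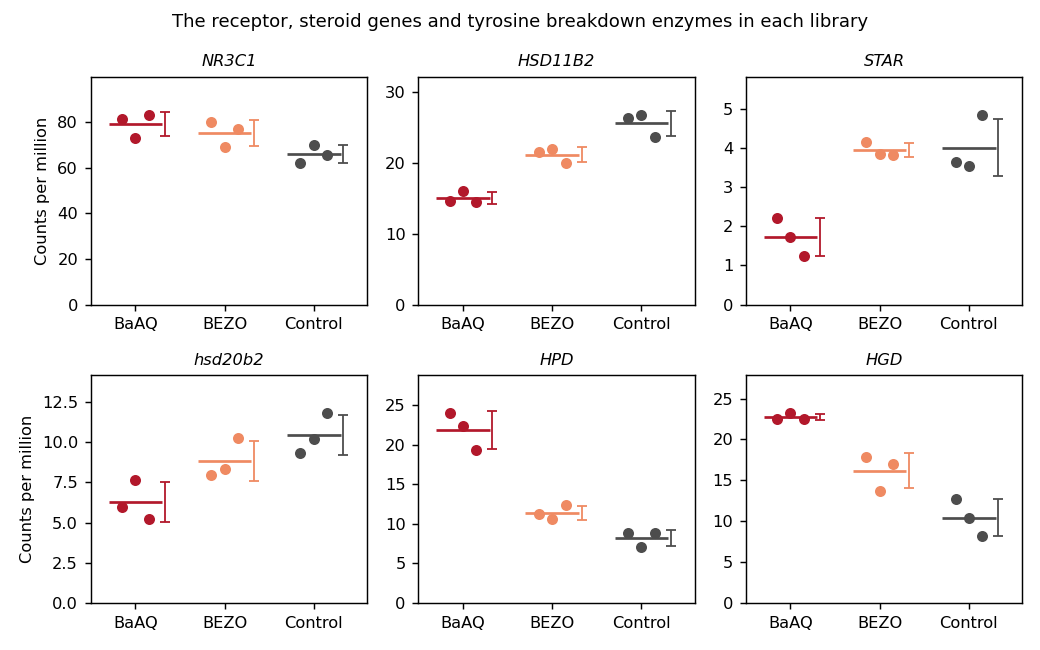
Level in CPM of the receptor gene NR3C1, of HSD11B2, STAR and hsd20b2 from steroid metabolism and of HPD and HGD from tyrosine breakdown in each BaAQ, BEZO and Control library. Points are libraries, horizontal lines group means and bars 1 SD on either side (n = 3); BaAQ lies below Control for HSD11B2, STAR and hsd20b2 and above it for HPD and HGD.

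PCK1, TAT and the enzymes of tyrosine breakdown are most abundant in the liver of mammals, and liver and yolk markers moved between the groups. The 17 matched markers summed to 10970 to 11990 CPM in BaAQ, 14150 to 15500 CPM in BEZO and 14760 to 15170 CPM in Control. Of 15 tested, 10 were lower in BaAQ against Control (66.7% beside 10.2% of all genes), and 1 was higher and 4 lower in BEZO against Control (33.3% beside 6.44%). TTR had no read in any BEZO library and in at least 1 BaAQ and 1 Control library, and ahsg1 had none in at least 1 BaAQ and 1 Control library. PCK1, HPD and HGD lay higher in BaAQ than in Control while the summed liver and yolk markers lay lower. TAT, at a log2 fold change of -0.60, and hpda, at -0.89, lay lower in BaAQ, as that sum did. The sum does not separate liver from yolk, and the part of either in any of these values was not tested. Markers of muscle, red blood cells, lens, neurons, epidermis and heart had reads in every library. A whole-embryo sample would have such reads, but they cannot establish that label. In BaAQ against Control, 2 of 3 epidermal markers were lower and 1 of 3 red blood cell markers was higher, beside 10.2% of all genes past the threshold. Lower in BEZO against Control were 5 of 5 lens, 2 of 3 red blood cell, 1 of 3 epidermal and 1 of 5 neuron markers, and 1 of 2 heart markers was higher, beside 6.44% of all genes. Their part in the values above was not tested.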

How the data were processed

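The deposited table holds the authors' raw read counts per Ensembl gene for 9 libraries (3 BaAQ, 3 BEZO, 3 Control) of polyadenylated RNA. The submitters' processing notes name CASAVA 1.8, FastQC, TopHat2, HTSeq, edgeR and the build Zv9, without options. The strand setting is not given in the sources used here, so reads of overlapping genes on opposite strands cannot be told apart. No columns were identical, and none was left out.

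The 10 genes, all lists and the tests were chosen with earlier results of these data known. Symbols were matched by identifier, and where a listed zebrafish symbol was absent its paralog suffix was removed. Of 179 symbols on 8 lists of related genes, 155 were matched, to 150 genes, 132 of them tested. Listed symbols such as dusp1, mt2 and glula found no match. From each list, up to 4 genes with the smallest p past the threshold could be named per comparison, beside the targets, NR3C1 and 5 nearest profiles for FKBP5 and for KLF9. Further list genes and copies, such as nfkbiab, were named after their values were seen.

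Counts were fitted with edgeR 4.0.16 (R 4.3.3; filterByExpr, TMM, quasi-likelihood test of 3 group means, 6 residual degrees of freedom). Standard errors are the fold change over the root of its F statistic. The biological coefficient of variation was 7.23%. CPM use the library totals. At these depths 3 reads equal 0.208 to 0.370 CPM; intervals cover counting error only. The fit was also run on simulated data with the same spread for every gene and changes set only in genes above a minimum level. Nothing is read from that run for genes with few reads or wide scatter, such as FKBP5 and KLF9. Alternatives were DESeq2 1.42.0, other size factors, other filters, 2 groups, the replicate block and each library left out. The labels tie no replicate number to a spawning day. Python 3.11.15, pandas 2.3.3 and matplotlib 3.10.9 made the tables and figures.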

Additional observations from a re-analysis of the deposited data

How the results depend on the processing

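FKBP5 kept its direction under all 15 alternatives in each comparison. Its vials did not overlap between any groups, so leaving out 1 library could not reverse the direction, and nothing is read from this. The log2 fold changes were -4.45 to -3.71 in BaAQ against Control and -2.00 to -1.09 in BEZO against Control. In BaAQ against BEZO they were -3.03 to -2.13. Over all genes, 1929 passed in BaAQ against Control (1276 to 1992 with a library left out), 1214 in BEZO against Control (761 to 1502) and 912 in BaAQ against BEZO (531 to 883). The lowest counts came without Control 3 (1276), without BEZO 3 (761; 796 without BEZO 1) and without BEZO 2 (531). Testing every gene with a read gave 1389 in BaAQ against BEZO. Of the 132 related genes, 40 passed in BaAQ against Control (28 to 40 with a library left out), 20 in BEZO against Control (11 to 25, with 11 without Control 2 or BEZO 3) and 19 in BaAQ against BEZO (13 to 22). With every gene with a read tested, 31 passed in BEZO against Control. Why these counts moved was not tested. With the replicate block FKBP5 stood at -4.08, -1.55 and -2.53, and 1916, 1184 and 839 genes passed. Same-numbered libraries had correlations of -0.036 to 0.029 in their deviations, and not every library correlated best with its own number. These correlations gave no sign of an effect shared by a number, but they cannot tell whether vials were set up in pairs. Scaling by median ratios moved the median of all genes by at most 0.001. Depth limits KLF9, STAR, hsd3b1 and PDK2 (ENSDARG00000059054) in BaAQ, among others, and TAT in every group.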
